A study of Mus musculus with 12 samples.

Results

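The genes described here are 40 imprinted genes that lie outside the imprinted Dlk1-Dio3 region, chosen from a fixed list of symbols by their identifiers. All 40 were found in both deposited count tables, among 56262 identifiers in the lung table and 54532 in the table of alveolar type 2 (AT2) cells. The libraries come from C57BL/6 mice and form 4 groups of 3. Lung tumours and the adjacent normal tissue of the same animals, mice 102, 217 and 224, were taken at 18 months, and these mice carried a Med23 knockout in T cells. AT2 cells make surfactant in the alveolus and were sorted by flow cytometry at 6 months, from mice 175, 179 and 191 with the Med23 knockout in T cells (AT2 KO) and from WT mice 176, 177 and 190 (AT2 WT). The tumour comparison therefore has no wild-type lung, since tumour and adjacent tissue share the deletion, and the labels name neither the Cre line nor the floxed allele. The study asked what type of tumour arose in these mice and what state AT2 cells were in before tumours formed.

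Imprinted genes are transcribed mainly from the copy inherited from 1 parent. DNA methylation laid down in the egg or the sperm marks the silent or the active copy, and in many loci a non-coding RNA from 1 parental copy silences its neighbours on the same chromosome. Many paternally expressed genes, such as Igf2, promote growth of the fetus and placenta, and several maternally expressed ones, such as Cdkn1c, Phlda2, Grb10 and Igf2r, restrain it. Many are strongly expressed in fetal tissues and decline after birth. In the listed set 21 genes are expressed mainly from the paternal copy, 18 from the maternal copy, and Gnas from either, depending on the transcript. RNA counts do not show which parental copy was read, so the parental label is background and allelic expression was not measured here. For several of these genes imprinting is known to be limited to some tissues, such as Ube3a to neurons.

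Promoter sequence is shown for 4 genes on which the results turn. Phlda2 and Ndn are the 2 members that passed in tumours both with and without the pairing by mouse. Nnat and Blcap are a paternal gene inside an intron of a maternal one, whose ratio was the most even among tumours. The windows are from RefSeq on GRCm38.p6 and run 250 bases before to 50 bases after the start of transcription. They are chr7:143502475-143502774 (minus strand) for Phlda2, chr7:62348027-62348326 (plus) for Ndn, chr2:157559828-157560127 (plus) for Nnat and chr2:157566312-157566611 (minus) for Blcap. Each is printed 5′ to 3′ with every CG, the dinucleotide that is methylated at imprinted control regions, in capitals.
Phlda2: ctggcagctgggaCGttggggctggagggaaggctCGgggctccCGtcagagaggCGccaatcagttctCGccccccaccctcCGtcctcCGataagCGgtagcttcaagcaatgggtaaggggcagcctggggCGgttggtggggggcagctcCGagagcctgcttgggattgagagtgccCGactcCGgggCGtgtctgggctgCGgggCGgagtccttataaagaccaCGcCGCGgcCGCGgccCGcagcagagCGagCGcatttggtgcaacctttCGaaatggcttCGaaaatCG
Ndn: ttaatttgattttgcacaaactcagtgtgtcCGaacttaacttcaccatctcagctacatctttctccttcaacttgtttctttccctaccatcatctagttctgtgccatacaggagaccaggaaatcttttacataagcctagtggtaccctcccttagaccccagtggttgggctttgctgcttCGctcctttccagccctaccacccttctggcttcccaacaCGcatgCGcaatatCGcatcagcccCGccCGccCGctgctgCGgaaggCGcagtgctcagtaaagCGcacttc
Nnat: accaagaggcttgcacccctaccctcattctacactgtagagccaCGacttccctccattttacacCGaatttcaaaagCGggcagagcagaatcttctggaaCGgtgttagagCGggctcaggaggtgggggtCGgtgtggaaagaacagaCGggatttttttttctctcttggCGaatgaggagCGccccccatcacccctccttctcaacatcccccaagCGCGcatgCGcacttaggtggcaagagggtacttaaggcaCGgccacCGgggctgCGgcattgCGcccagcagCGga
Blcap: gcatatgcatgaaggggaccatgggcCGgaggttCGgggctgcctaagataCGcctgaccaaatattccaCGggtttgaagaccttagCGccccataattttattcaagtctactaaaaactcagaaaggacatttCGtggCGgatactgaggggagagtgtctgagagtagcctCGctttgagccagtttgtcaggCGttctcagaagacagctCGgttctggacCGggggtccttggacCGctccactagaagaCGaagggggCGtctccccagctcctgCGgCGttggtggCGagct
Phlda2 holds 26 CG in its window, Nnat and Blcap 17 each, and Ndn 11. The median is 17 CG over the 47 windows of the 32 members that matched the RefSeq table, against 7 over all 32851 windows. TGCCGC, the methylated core recognised by the imprint-keeping factor ZFP57, was searched on both strands. It was found in 12 of the 47 member windows (25.5%), against 11.6% of all windows, and several members have more than 1 window. The motif itself contains a CG, and these shares were not matched for CG content. Nearly identical windows of Mest both hold the motif and are both counted. Of the 4 windows printed, only that of Nnat holds it, once, as its reverse complement 27 bases after the start. These counts describe the letters and say nothing of binding or methylation in these samples.

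Total counts ran from 65163100 to 77951014 per lung library and from 15943084 to 18913242 per AT2 library. Both libraries of mouse 217 stood apart. Relative to the other lung libraries their expression fell with exon length (Spearman rho across genes of -0.32 in tumour and -0.32 in adjacent tissue), against 0.14 to 0.30 in the other 4. AT2 WT 176 and 177 showed the same trend (-0.19 and -0.27), against 0.14 to 0.39 in the other AT2 libraries. The labelled tissues matched their markers: 12 AT2 markers summed to 76460 to 228900 CPM in tumours and 23310 to 43780 CPM in adjacent tissue, and to 148500 to 187100 CPM in sorted AT2 cells. Med23 averaged 27.0 ± 9.29 CPM in tumours, against 27.5 ± 5.65 CPM in adjacent lung (SD, n = 3 each). A deletion in T cells is not checked by Med23 in whole lung or in epithelial cells.

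In tumours against adjacent lung, imprinted genes outside Dlk1-Dio3 did not move together. In the fit that leaves out the pairing by mouse, Phlda2 rose and Ndn fell, and the other 34 tested members did not pass. With the mouse in the fit 7 members passed, as given below. In bulk tissue, fewer cells of a type and less RNA per cell cannot be told apart. The test was edgeR's quasi-likelihood test with Benjamini-Hochberg adjustment over all genes and a threshold of 0.05 on the adjusted p. Of the 40 members 36 had enough counts to be tested, and Usp29, Zim1, Magel2 and Zdbf2 did not. The 1 member that rose is 2.78% of those tested, against 2.86% of all 19995 genes tested. The 1 that fell is also 2.78%, against 7.18% of all genes. Across all genes 571 were higher and 1436 lower, so that 28.45% of calls were higher, and scaling by library totals alone made this 17.6%. That scaling also moved the median of all genes to -0.18, against 0.04 (log2).

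Tumour and adjacent tissue came from the same mice, so the fit was repeated with the mouse as a block. Then 4 members were higher (Phlda2, Rasgrf1, Blcap and H13), which is 11.1% of those tested against 5.57% of all genes. Another 3 were lower (Ndn, Sgce and Peg13), 8.33% against 9.34% of all genes. Without both libraries of mouse 217, and with no block, neither Phlda2 (adjusted p = 0.0833) nor Ndn (0.0939) passed, where 0.726% of all genes were higher and 3.40% lower. DESeq2 called 3 members higher and 3 lower, in all 16.7% of those tested, against 18.7% of all genes. With limma-voom 1 member was higher (2.78% of members tested, against 3.11% of all genes) and 2 were lower (5.56%, against 8.15% of all genes). Scaling by library totals alone gave 2 lower (5.56%, against 9.20% of all genes). In 5 tested members (Blcap, Phlda2, Slc22a18, Cd81 and Rasgrf1) every tumour lay above every adjacent library, which is 13.9% of those tested against 11.6% of all genes. In 8 (H19, Mest, Nnat, Ndn, Cdkn1c, Impact, Peg13 and Zrsr1) every tumour lay below, 22.2% against 18.9%. Both of these shares without overlap lie a little above those of all genes.

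**Figure D1:**
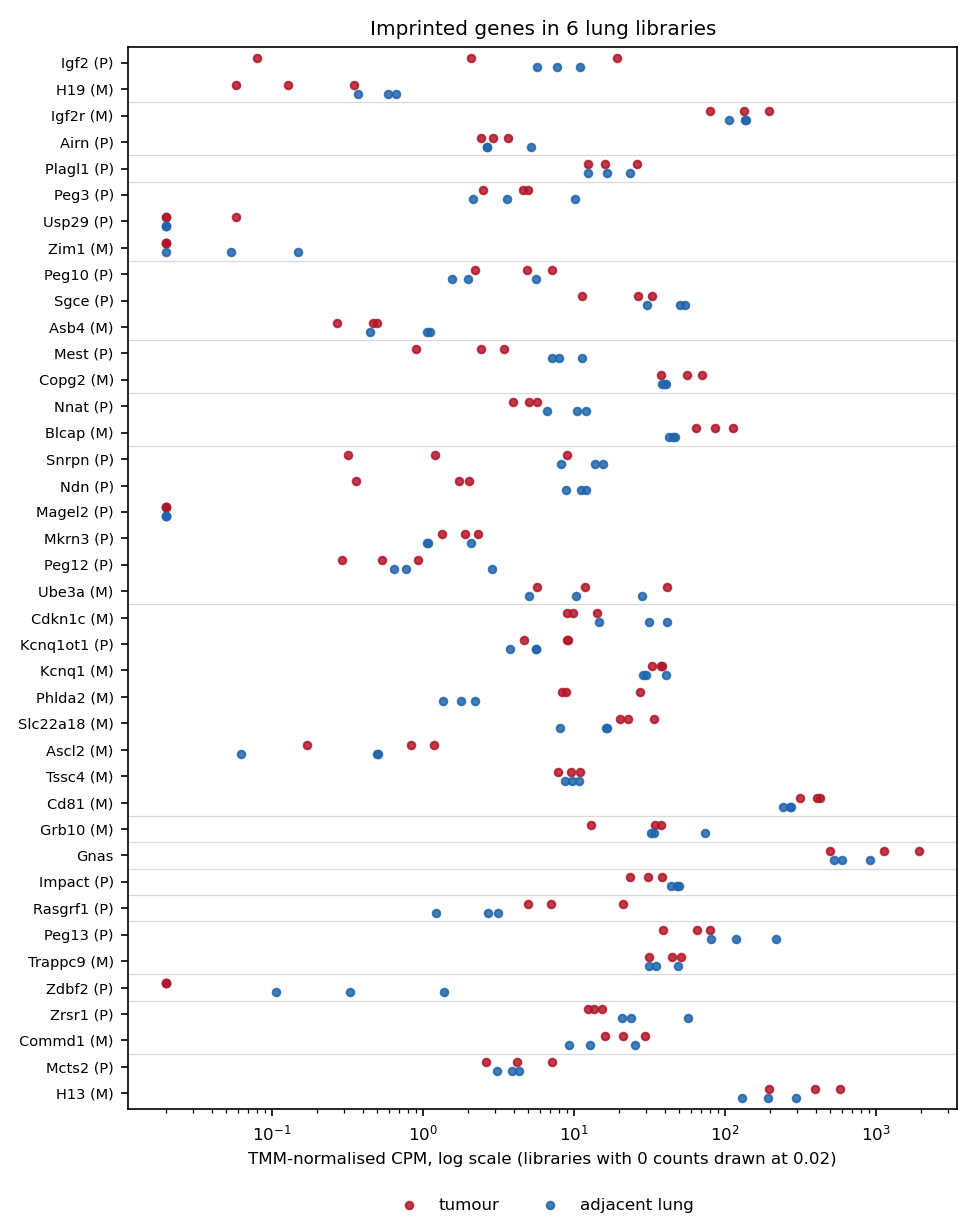
Level of each of the 40 imprinted genes in the 3 tumour and 3 adjacent lung libraries, as TMM-normalised CPM on a log axis, with P for paternal and M for maternal expression and lines between loci. Phlda2 and Rasgrf1 lie to the right in tumours, Ndn and Mest to the left, and most other genes overlap.

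Phlda2 lies in the Kcnq1 domain (chromosome 7, 143501545 to 143503150 on GRCm38, minus strand). It encodes a small pleckstrin homology domain protein that limits growth of the mouse placenta. It stood at 8.85, 27.5 and 8.37 CPM in tumours 102, 217 and 224, against 2.23, 1.81 and 1.36 CPM in the adjacent tissue of the same mice. All tumours were above all adjacent libraries, and tumour 217 was the highest by a wide margin. The log2 fold change was 3.05 ± 0.60 (standard error) with an edgeR adjusted p of 0.0229. The call was lost without adjacent 102 (adjusted p = 0.0691), adjacent 217 (0.0719) or adjacent 224 (0.0878). Without tumour 217 it was kept, at 2.19 on the log2 scale (edgeR adjusted p = 0.0347).

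Phlda2 was the only member of the Kcnq1 domain that passed. In this domain the paternal non-coding RNA Kcnq1ot1 silences the genes around it in cis. Cdkn1c, an inhibitor of cyclin-dependent kinases that restrains fetal growth, was at 9.09, 14.2 and 9.94 CPM in tumours, against 41.6, 31.6 and 14.7 CPM in adjacent lung. The groups did not overlap, with adjacent 224 close to the tumours, and the gene did not pass (log2 fold change -1.41 ± 0.44, edgeR adjusted p = 0.0894). It passed with scaling by library totals alone (adjusted p = 0.0437) and with DESeq2 (0.0346). Slc22a18, a membrane transporter next to Phlda2, was at 22.9, 34.1 and 20.4 CPM in tumours, against 8.07, 16.6 and 16.3 CPM in adjacent lung. Its groups did not overlap either, and it did not pass (0.92 ± 0.40, adjusted p = 0.210).

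Other genes of the domain were closer between groups. Cd81, a tetraspanin of the cell surface, was at 406, 313 and 425 CPM in tumours, against 271, 275 and 244 CPM in adjacent lung (log2 fold change 0.53 ± 0.29, edgeR adjusted p = 0.334). Kcnq1ot1 itself was at 4.69, 9.20 and 9.08 CPM in tumours, against 5.60, 3.77 and 5.63 CPM in adjacent lung. The potassium channel gene Kcnq1 was at 38.0, 33.0 and 38.4 CPM in tumours, against 30.0, 28.7 and 40.9 CPM in adjacent lung. Both overlapped between groups and neither passed. Kcnq1ot1 lies antisense to Kcnq1, so without strand the reads of their shared bases cannot be told apart. Tssc4 was at 7.83, 9.61 and 11.0 CPM in tumours, against 9.68, 8.82 and 10.9 CPM in adjacent lung, with no difference beyond the spread of the libraries. Ascl2, a transcription factor of trophoblast and intestinal stem cells, was low throughout, at 0.171, 1.19 and 0.831 CPM in tumours, against 0.0626, 0.495 and 0.506 CPM in adjacent lung. It was higher in the tumour of each of the 3 mice and did not pass (edgeR adjusted p = 0.633). Thus the maternal genes of this domain did not share a direction: Phlda2 was higher and Cdkn1c had a negative fold change.

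Ndn lies in the Snrpn-Ube3a domain (chromosome 7, 62346569 to 62350262, plus strand). It encodes necdin, a protein of the MAGE family that restrains division of neurons. It stood at 1.75, 2.02 and 0.364 CPM in tumours, against 11.2, 12.0 and 8.87 CPM in adjacent lung. Every tumour lay below every adjacent library, and the means differed 7.74-fold. The log2 fold change was -2.95 ± 0.67 with an edgeR adjusted p of 0.0334. The call was lost without tumour 102 (adjusted p = 0.0880), adjacent 102 (0.0962), adjacent 217 (0.0874) or adjacent 224 (0.0845).

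Snrpn, the gene of a neuronal small nuclear ribonucleoprotein and the host of the domain's imprinting centre, split the tumours. It was at 1.21, 9.06 and 0.321 CPM in tumours, against 15.5, 13.8 and 8.22 CPM in adjacent lung. Tumours 102 and 224 lay far below every adjacent library and tumour 217 lay among them. Over all libraries Snrpn did not pass (log2 fold change -1.83 ± 1.05, edgeR adjusted p = 0.358), and without tumour 217 it did (-4.09, adjusted p = 0.0210). The identifiers that share exons with it on the same strand, Snurf and Gm38393, were each at or below 1.37 CPM in every lung library.

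The other paternal genes of the domain were low. Mkrn3, a makorin ring finger gene, was at 1.35, 1.91 and 2.32 CPM in tumours, against 1.08, 1.07 and 2.08 CPM in adjacent lung (edgeR adjusted p = 0.756). Peg12, a retrogene related to the Frat regulators of Wnt signalling, was at 0.938, 0.541 and 0.292 CPM in tumours, against 2.86, 0.642 and 0.772 CPM in adjacent lung (adjusted p = 0.431). It was lower in the tumour of each mouse, by less than adjacent libraries differed from one another. Magel2, a MAGE family gene next to Ndn, had 0 counts in all 6 libraries. Ube3a, the ubiquitin ligase gene of Angelman syndrome, was at 41.3, 5.71 and 11.8 CPM in tumours, against 28.2, 5.03 and 10.3 CPM in adjacent lung. Libraries differed by mouse far more than by tissue: mouse 102 was high and mouse 217 low in both. Ube3a has 20.6 kb of exon, and expression in both libraries of mouse 217 fell with exon length. The part of that trend in this spread was not tested. With the mouse as a block the log2 fold change of Ube3a was 0.31 ± 0.21 (edgeR adjusted p = 0.380). Antisense identifiers over Ube3a, among them Snhg14 at 0.227 to 4.71 CPM, cannot be told apart from it without strand.

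**Figure D2:**
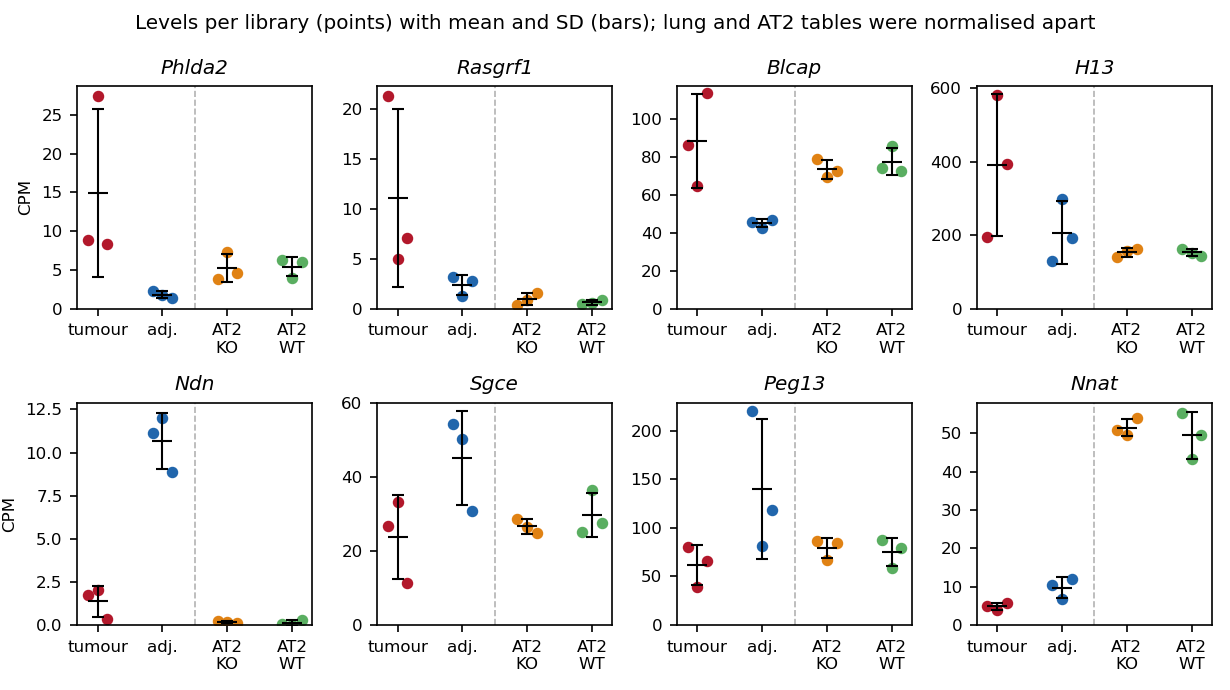
CPM per library (points) with mean and SD (bars) for the 7 members that passed in lung with or without the mouse as a block, and Nnat. Phlda2, Rasgrf1, Blcap and H13 are higher in tumours, Ndn, Sgce and Peg13 lower, and AT2 KO and AT2 WT libraries overlap in all 8; lung and AT2 tables were normalised apart.

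The insulin-like growth factor genes at the core of imprinted growth control did not pass. Igf2, the fetal growth factor, was listed at 19.3, 0.0796 and 2.10 CPM in tumours, against 11.0, 5.71 and 7.81 CPM in adjacent lung. The value of tumour 217 depended on how reads were assigned. Gm49394, an identifier that shares 3596 exon bases with Igf2 on the same strand, was listed at 11.0 CPM in that tumour and at 0 in every other lung library. With the 2 summed, an alternative chosen after the values were seen, Igf2 was at 19.3, 11.1 and 2.10 CPM in tumours. Tumours then overlapped the adjacent libraries (log2 fold change 0.41 ± 0.72, edgeR adjusted p = 0.811), as they did unsummed (-0.19 ± 1.33, adjusted p = 0.960). The sign of the fold change turned with the summing.

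H19, the maternal non-coding RNA made from the same enhancers as Igf2, was at 0.128, 0.350 and 0.0583 CPM in tumours, against 0.664, 0.589 and 0.372 CPM in adjacent lung. Every tumour lay below every adjacent library, at 4 to 22 counts in tumours and 28 to 53 in adjacent tissue. It did not pass (log2 fold change -1.59 ± 0.90, edgeR adjusted p = 0.347). Igf2r, the receptor that clears IGF2 from the cell surface, was at 195, 79.4 and 133 CPM in tumours, against 138, 107 and 136 CPM in adjacent lung. Airn, the non-coding RNA that silences the paternal Igf2r, ranged from 2.44 to 3.67 CPM in tumours and from 2.65 to 5.25 CPM in adjacent tissue. Neither passed, and the fitted change of Igf2r (0.10 ± 0.38) turned negative with scaling by library totals alone. Grb10, an adaptor that dampens insulin and IGF receptor signalling, reached at most 37.8 CPM in tumours and stood at 32.4 to 74.4 CPM in adjacent lung (adjusted p = 0.464). Plagl1, a zinc finger factor that regulates other imprinted genes, ranged from 12.5 to 26.2 CPM in tumours and from 12.4 to 23.7 CPM in adjacent tissue (adjusted p = 0.965).

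Beyond the imprinted members, some genes of the IGF axis passed. Of 19 listed genes of IGF ligands, receptors, binding proteins and their proteases 18 were tested. Of these 3 were higher (16.7%, against 2.86% of all genes) and 1 lower (5.56%, against 7.18%), at a median log2 fold change of -0.19 against 0.04 over all genes tested. Igfbp3, a binding protein that carries IGF in blood, averaged 372 ± 80.2 CPM in tumours, against 56.5 ± 33.7 CPM in adjacent lung (edgeR adjusted p = 0.0197). Stc1, an inhibitor of the protease that releases IGF from its binding proteins, averaged 70.6 ± 78.7 CPM in tumours, against 3.08 ± 1.74 CPM in adjacent lung (0.0263). Irs1, the docking protein of the insulin and IGF receptors, averaged 61.5 ± 30.1 CPM in tumours, against 16.8 ± 6.57 CPM in adjacent lung (0.0448). Igfbp6, a binding protein that prefers IGF2, averaged 4.95 ± 6.08 CPM in tumours, against 119 ± 46.0 CPM in adjacent lung (0.0350). Irs1 was lost when any 1 of the 6 libraries was left out, Igfbp6 without any library other than tumour 217, Stc1 without any adjacent library, and Igfbp3 without tumour 224, adjacent 217 or adjacent 224. With the mouse as a block 4 were higher (22.2%, against 5.57% of all genes) and 3 lower (16.7%, against 9.34%).

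Genes that maintain imprints did not pass. Of 21 listed genes, among them Zfp57, Trim28, Ctcf, Dnmt1 and Tet2, 19 were tested and 0 passed with edgeR, with the block, with DESeq2 or with limma-voom, while 2 (10.5%) had an unadjusted p under 0.05, against 24.0% of all genes. The median log2 fold change of the list was 0.34, against 0.04 over all genes tested. In the Dlk1-Dio3 region 5 of 7 genes were higher in tumours, at a median log2 fold change of 7.32 over the 7, where the largest fitted change of a tested member outside it was 3.05.

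In several loci a paternally expressed gene lies inside or beside a maternally expressed one, so that their ratio can be read within a library, free of library scaling. There are 7 such loci with 1 gene of each kind. The ratio of paternal to maternal counts was lower in every tumour than in every adjacent library at 4 of them (Nnat to Blcap, Mest to Copg2, Peg13 to Trappc9 and Zrsr1 to Commd1), higher at 0, and overlapped at 3. These counts changed when same-strand overlapping identifiers were added, as given below. Zrsr1 to Commd1 then overlapped, and Igf2 to H19 was higher in every tumour. Since these loci were described with the levels of both genes known, no p is given, and no such share over all genes was computed.

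Nnat and Blcap gave the most even ratio. Blcap encodes a small membrane protein (chromosome 2, 157556362 to 157571274), and Nnat, a proteolipid of the endoplasmic reticulum, lies in its intron. Blcap was at 86.4, 64.8 and 114 CPM in tumours, against 45.7, 42.5 and 46.6 CPM in adjacent lung. The groups did not overlap, and adjacent libraries differed little among themselves. The log2 fold change was 0.98 ± 0.31, with an edgeR adjusted p of 0.0896, and of 0.0434 with the mouse as a block. Nnat was at 5.04, 3.98 and 5.68 CPM in tumours, against 10.5, 6.66 and 12.0 CPM in adjacent lung (log2 fold change -0.99 ± 0.41, adjusted p = 0.188). The ratio of Nnat to Blcap was 0.0584, 0.0614 and 0.0499 in tumours and 0.229, 0.157 and 0.258 in adjacent tissue. It was thus lower in the tumour of each mouse, and the means differed 3.79-fold.

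Mest, an enzyme gene of the alpha/beta hydrolase family, lies tail to tail with Copg2, a coatomer subunit gene. Mest was at 2.43, 0.907 and 3.45 CPM in tumours, against 11.3, 7.95 and 7.16 CPM in adjacent lung. No tumour reached the lowest adjacent library. The log2 fold change was -1.96 ± 0.57 with an edgeR adjusted p of 0.0731, of 0.0551 with the mouse as a block, of 0.0450 with limma-voom and of 0.0042 with DESeq2. Copg2 was at 70.6, 37.7 and 55.8 CPM in tumours, against 40.6, 38.3 and 39.4 CPM in adjacent lung, and did not pass (adjusted p = 0.437). Mest to Copg2 was 0.0344, 0.0241 and 0.0619 in tumours and 0.279, 0.208 and 0.182 in adjacent tissue. The 2 genes share 912 exon bases on opposite strands, so part of the reads could count for either.

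Peg13, a non-coding RNA in an intron of Trappc9 (chromosome 15, 72805600 to 72810324), was at 79.8, 39.3 and 65.9 CPM in tumours, against 220, 81.5 and 118 CPM in adjacent lung. Every tumour was below every adjacent library, and mouse 102 was high in both tissues. The log2 fold change was -1.18 ± 0.45 (edgeR adjusted p = 0.159), and with the mouse as a block -1.12 ± 0.20 (0.0274). Trappc9, a subunit of a vesicle-tethering complex, was at 45.1, 31.5 and 51.1 CPM in tumours, against 35.2, 31.4 and 48.8 CPM in adjacent lung. Peg13 to Trappc9 was 1.77, 1.25 and 1.29 in tumours and 6.25, 2.59 and 2.42 in adjacent tissue.

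Zrsr1, a splicing factor retrogene in an intron of Commd1, was at 13.6, 15.5 and 12.4 CPM in tumours, against 57.1, 24.1 and 20.8 CPM in adjacent lung. The groups did not overlap, and the gene did not pass (log2 fold change -1.30 ± 0.44, edgeR adjusted p = 0.112). Commd1, a gene of copper handling, was listed at 21.3, 29.5 and 16.1 CPM in tumours, against 12.8, 25.5 and 9.30 CPM in adjacent lung. Zrsr1 and Commd1 share 412 exon bases on opposite strands, and the identifier Gm28048 shares exons with Commd1 on the same strand. With Gm28048 added, Commd1 was at 21.3, 57.1 and 16.4 CPM in tumours, against 12.9, 65.5 and 50.4 CPM in adjacent lung. Its fitted change then turned negative (-0.44 ± 0.67), and the ratio of Zrsr1 to Commd1 overlapped between tumours and adjacent tissue, so this locus is the least secure of the 4.

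**Figure D3:**
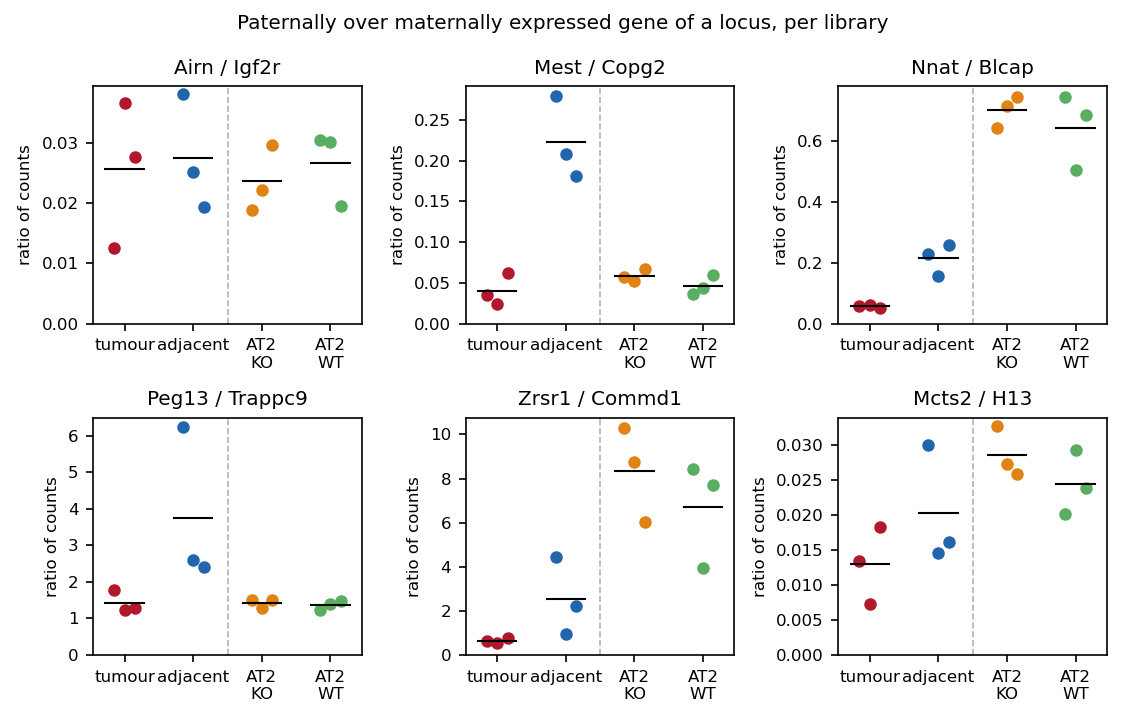
Ratio of counts of the paternally to the maternally expressed gene of 6 loci in each library (points) with the group mean (line), on linear axes. The ratio is lower in all 3 tumours than in all 3 adjacent libraries for Mest, Nnat, Peg13 and Zrsr1. AT2 KO and AT2 WT overlap in all 6. With Gm28048 added to Commd1, tumours and adjacent tissue overlap for Zrsr1. Igf2 to H19 is not drawn, and with Gm49394 added to Igf2 it is higher in every tumour.

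At the 3 other loci the ratio overlapped. H13, the signal peptide peptidase gene (chromosome 2, 152669461 to 152708670), was at 196, 581 and 394 CPM in tumours, against 130, 298 and 193 CPM in adjacent lung. It was higher in the tumour of each mouse although the groups overlapped, and it passed only with the mouse as a block (log2 fold change 0.86 ± 0.19, edgeR adjusted p = 0.0445, against 0.320 without). Mcts2, a retrogene in its intron, was at 2.63, 4.20 and 7.22 CPM in tumours, against 3.90, 4.35 and 3.11 CPM in adjacent lung (adjusted p = 0.796). Mcts2 to H13 ranged from 0.00723 to 0.0183 in tumours and from 0.0146 to 0.0301 in adjacent tissue. Airn to Igf2r ranged from 0.0125 to 0.0367 in tumours and from 0.0194 to 0.0382 in adjacent tissue. Igf2 to H19 was 151, 0.227 and 36.0 in tumours and 16.6, 9.71 and 21.0 in adjacent tissue. With Gm49394 added to Igf2 the ratio in tumour 217 was 31.7, and every tumour then lay above every adjacent library, the opposite direction to the 4 loci above.

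Rasgrf1, a guanine nucleotide exchange factor that activates RAS and RAC (chromosome 9, 89909908 to 90026977), was at 21.3, 4.95 and 7.05 CPM in tumours, against 3.17, 1.22 and 2.71 CPM in adjacent lung. Every tumour lay above every adjacent library, and tumour 102 was the highest. The log2 fold change was 2.23 ± 0.68 with an edgeR adjusted p of 0.0836, and 2.05 ± 0.39 with 0.0323 with the mouse as a block. It passed with DESeq2 (adjusted p = 0.00646) and not with limma-voom (0.105). It is the only paternal member whose tumours all exceeded the adjacent tissue.

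Sgce, the epsilon-sarcoglycan gene (chromosome 6, 4674350 to 4747207), shares a promoter region with Peg10, a placental gene derived from a retrotransposon. Sgce was at 26.8, 33.2 and 11.3 CPM in tumours, against 54.3, 50.3 and 30.7 CPM in adjacent lung. It was lower in the tumour of each mouse, while tumour 217 lay above adjacent 224, and it passed only with the mouse as a block (log2 fold change -1.02 ± 0.23, edgeR adjusted p = 0.0477, against 0.272 without). Peg10 was at 4.93, 7.23 and 2.22 CPM in tumours, against 5.62, 1.57 and 2.01 CPM in adjacent lung, so that only in mouse 217 did the tissues differ much (adjusted p = 0.655). Asb4, a maternal gene of the same locus, stayed at or below 1.12 CPM in every lung library (adjusted p = 0.427).

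The remaining members did not pass. Gnas, which encodes the stimulatory G protein subunit, had the highest mean CPM of all members, at 501, 1942 and 1136 CPM in tumours, against 593, 913 and 526 CPM in adjacent lung. The groups overlapped (log2 fold change 0.82 ± 0.53, edgeR adjusted p = 0.423). Per kilobase of exon Cd81 was highest, at a mean of 133 CPM per kb in tumours and 91.5 in adjacent tissue, followed by Gnas at 107 and 60.6. Impact, an inhibitor of the amino acid sensor kinase GCN2, was at 23.5, 31.0 and 38.6 CPM in tumours, against 49.8, 43.9 and 48.6 CPM in adjacent lung. Its groups did not overlap, and the difference did not pass (-0.61 ± 0.30, adjusted p = 0.266). Peg3, a zinc finger gene tied to growth and maternal care in mice, ranged from 2.50 to 5.00 CPM in tumours and from 2.14 to 10.2 CPM in adjacent tissue (adjusted p = 0.795).

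Its neighbours Usp29 and Zim1 had 4 and 0 counts over the 3 tumours and 0 and 16 over the 3 adjacent libraries, too few to be tested. Zdbf2, a paternal zinc finger gene, had 0 counts in every tumour and 111, 8 and 25 counts in adjacent tissue. That is at least 41.0-fold lower against a floor of 3 counts over the tumours, a limit that covers counting error only. The bound rests largely on adjacent 102 and is 14.8-fold without it. With all 6 libraries Zdbf2 did not pass the filter on low counts and was not tested. It was fitted in 4 settings that left out 1 library (edgeR adjusted p of 0.0664 to 0.107). Without both libraries of mouse 217 it was fitted too (0.0759), and it passed in none of these.

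**Figure D4:**
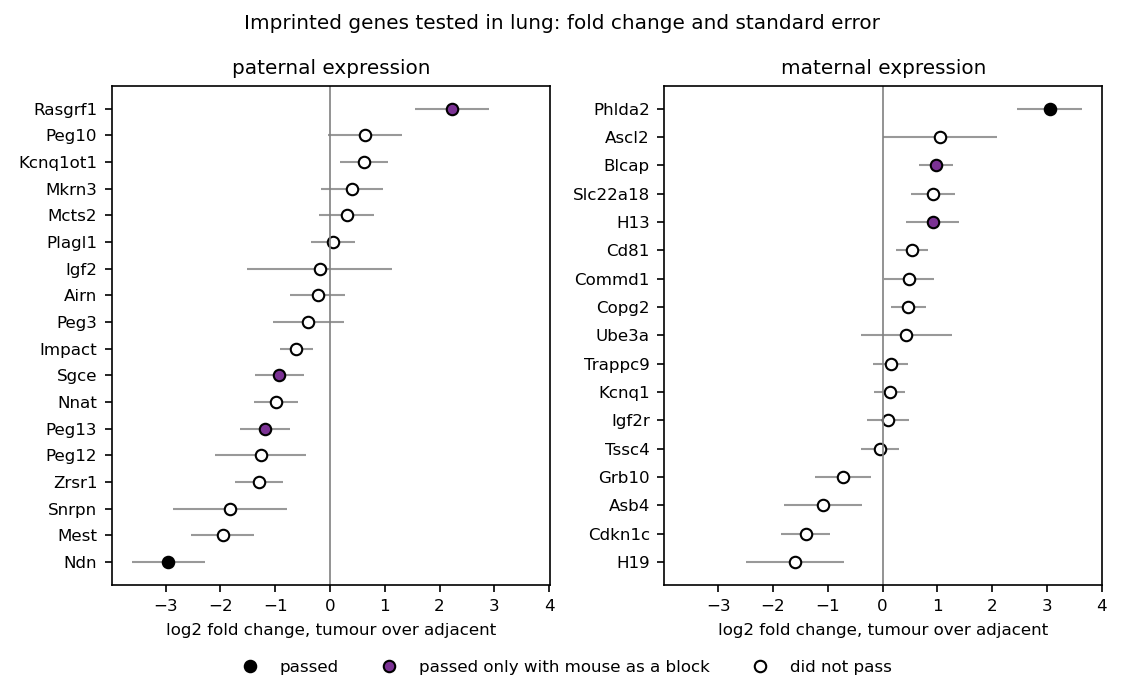
Log2 fold change of tumour over adjacent lung (points) with its standard error (bars) for the tested members, split by parental expression. Phlda2 and Ndn passed (black), Rasgrf1, Peg13, Sgce, Blcap and H13 passed only with the mouse as a block (purple), and 12 of 18 paternal genes lie below 0 while 12 of 17 maternal genes lie above. Over all 19995 genes tested 10370 lie above 0. In AT2 cells, not drawn, the signs of the parental classes split the other way, and no member passed. With scaling by library totals alone several genes near 0 changed sign in both comparisons.

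By parental label the fitted changes differed in sign more often than in call. Of 18 tested paternal genes 6 had a fold change above 0 and 12 below, at a median of -0.50, and 1 passed (Ndn, lower). Of 17 tested maternal genes 12 were above 0 and 5 below, at a median of 0.43, and 1 passed (Phlda2, higher). Over all 19995 genes tested 10370 were above 0 and 9625 below, at a median of 0.04. With the mouse as a block 1 of the 18 paternal genes was higher and 3 were lower. Of the 17 maternal genes 3 were higher and 0 lower in that fit, which called 5.57% of all genes higher and 9.34% lower. The paternal Plagl1 and the maternal Igf2r, Kcnq1 and Trappc9, all near 0, turned negative with scaling by library totals alone. The counts by sign therefore depend on the scaling. In AT2 KO against AT2 WT, where no gene passed, the signs split the other way. There 12 paternal genes were above 0 and 5 below, and 3 maternal genes were above 0 and 12 below. This split depended on the scaling too. With library totals alone the maternal Ube3a, Phlda2, Cd81 and Trappc9 and the paternal Peg3, all near 0, turned positive. The difference between the parental classes was not tested, since their members were chosen with results of these data known.

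Markers of several cell types moved with these genes. Over all genes tested edgeR called 7.18% lower and 2.86% higher, and with the mouse as a block 9.34% lower and 5.57% higher. Of 12 endothelial markers 10 were lower in tumours, with a summed level of 784 to 845 CPM in tumours and 3464 to 5219 CPM in adjacent tissue. The 12 fibroblast markers summed to 567 to 1163 CPM in tumours and 2037 to 3269 CPM in adjacent tissue, and 1 of 12 passed (6 with the mouse as a block). The 7 mesothelial markers summed to 8.724 to 18.99 CPM in tumours and 80.5 to 99.1 CPM in adjacent tissue, with 4 of 7 lower and Muc16 at 0 in tumours. Of 10 neuroendocrine and neural markers 7 were tested and 4 were lower (2 with the mouse as a block), with a sum of 7.52 to 14.8 CPM in tumours and 14.2 to 26.8 CPM in adjacent tissue. Among them Resp18 was at 0 in tumours, against 0.664 ± 0.296 CPM in adjacent lung. Chga, Chgb and Snap25 were also at 0 in tumours, but at means of at most 0.334 CPM in adjacent lung, and were not tested, while Tubb3 and Uchl1 overlapped between groups. The 8 smooth muscle markers summed to 120 to 312 CPM in tumours and 335 to 1206 CPM in adjacent tissue, and 3 of 8 were lower. Airway and other lists were lower too. The 8 ciliated markers summed to 10.7 to 38.6 CPM in tumours and 487 to 855 CPM in adjacent tissue (7 of 8 lower), and the 7 club cell markers to 1752 to 3871 CPM in tumours and 18100 to 38870 CPM in adjacent tissue (4 of 7). The 9 AT1 markers summed to 944 to 2278 CPM in tumours and 2708 to 3905 CPM in adjacent tissue (4 of 9 lower), and the 7 heart muscle markers to 3.06 to 10.4 CPM in tumours and 39.4 to 381 CPM in adjacent tissue (3 of 6 tested). Of 12 AT2 markers 2 rose (7 with the block), and of 11 T cell and 10 macrophage markers 1 each was lower (5 and 1 with the block). Without the block the shares called in the fibroblast, T cell and macrophage lists lie near that of all genes. The 11 T cell markers summed to 11.5 to 53.6 CPM in tumours and 53.3 to 168 CPM in adjacent tissue, the 10 macrophage markers to 1194 to 2444 CPM in tumours and 804 to 8651 CPM in adjacent tissue, and of 6 fat markers 3 were tested and 0 passed with edgeR (1 with DESeq2 and 2 at an unadjusted p under 0.05). The lists that were lower moved the same way as Ndn, Mest, Cdkn1c, Sgce, Peg13 and Zrsr1, and their part in those differences was not tested. Of these genes Ndn had 0 to 5 counts in each of the 6 AT2 libraries, below its CPM in every tumour. Zrsr1 was at 36.6 to 43.2 CPM in AT2 cells, above the 12.4 to 15.5 CPM of tumours. Mest, Cdkn1c, Sgce and Peg13 overlapped between AT2 cells and tumours.

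Beside the loci of the passing members, the nearest tested protein-coding gene outside the list was read on each side. Whether these genes are imprinted themselves was not examined. Beside the Snrpn-Ube3a domain Atp10a, a phospholipid flippase gene, was lower in tumours, at 12.0 ± 3.85 CPM against 39.2 ± 12.7 CPM in adjacent tissue (edgeR adjusted p = 0.0328), and Chrna7 on the other side did not pass. Beside Rasgrf1, at a distance of 27175 bases, the cathepsin gene Ctsh was higher, at 1327 ± 821 CPM in tumours against 265 ± 18.0 CPM in adjacent tissue (0.0316), and Tmed3 did not pass. Atp10a was lost when any 1 library was left out, at up to adjusted p = 0.116, and Ctsh without any library but tumour 217, at up to 0.110. Beside the Kcnq1 domain Nap1l4, which lies 10429 bases beyond the end of Phlda2's locus, averaged 80.8 ± 6.93 CPM in tumours, against 74.4 ± 2.58 CPM in adjacent lung (adjusted p = 0.847). Src beside Blcap, Pdk4 beside Sgce and Rem1 beside H13 passed only with the mouse as a block. Ctnnbl1, Casd1, Id1, Col22a1, Chrac1 and Mrpl23 passed in neither fit.

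In AT2 cells of knockout against wild-type mice, sorted before tumours formed, no imprinted gene passed. Of the 40 members 33 were tested and 0 passed with edgeR, against 0 (0%) of all 14053 genes tested. DESeq2 (0.00712% of all genes called) and limma-voom (0%) also called 0 members. At an unadjusted p under 0.05 there were 0 members and 347 of all genes, and the smallest adjusted p of a member was 0.984. No member had groups that did not overlap, against 4.19% of all genes higher and 4.11% lower. The fold changes ran from -0.67 to 0.59 on the log2 scale, all under 1 in size, with standard errors of 0.14 to 0.84 and a median of 0.18. Smaller differences than these standard errors allow were not detectable with 3 mice a group. Across all genes AT2 WT libraries differed more from one another than AT2 KO libraries did.

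Members described above in tumours overlapped between AT2 KO and AT2 WT. Phlda2 was at 3.86, 7.25 and 4.64 CPM in AT2 KO 175, 179 and 191 and 6.29, 3.96 and 5.97 CPM in AT2 WT 176, 177 and 190. The groups overlapped, with a log2 fold change of -0.04 ± 0.30. Blcap was at 78.8, 69.2 and 72.3 CPM in AT2 KO and 74.2, 85.9 and 72.4 CPM in AT2 WT (-0.08 ± 0.14). Nnat was at 50.8, 49.6 and 54.0 CPM in AT2 KO and 55.4, 43.3 and 49.7 CPM in AT2 WT (0.06 ± 0.14). H13, Sgce and Peg13 also overlapped, with fold changes of 0.01 ± 0.14, -0.16 ± 0.17 and 0.07 ± 0.17. Rasgrf1 was low, at 0.351, 0.878 and 1.57 CPM in AT2 KO and 0.471, 0.516 and 0.861 CPM in AT2 WT (0.59 ± 0.60). The smallest unadjusted p belonged to Cdkn1c, at 4.67, 6.70 and 3.74 CPM in AT2 KO and 11.6, 7.40 and 5.11 CPM in AT2 WT (log2 fold change -0.67 ± 0.32, edgeR adjusted p = 0.984). AT2 WT 176 was the highest of the 6 libraries and AT2 WT 190 lay among the knockouts.

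The members of highest mean CPM in AT2 cells overlapped between AT2 KO and AT2 WT. Igf2r was at 207, 215 and 201 CPM in AT2 KO and 164, 116 and 217 CPM in AT2 WT, where AT2 WT 177 was the lowest. Cd81 was at 191, 195 and 200 CPM in AT2 KO and 174, 225 and 188 CPM in AT2 WT. Ube3a was at 89.0, 86.1 and 88.9 CPM in AT2 KO and 69.8, 106 and 94.3 CPM in AT2 WT. In each of these genes the WT libraries spread wider than the KO libraries and enclosed or overlapped them. H13 was at 139, 157 and 163 CPM in AT2 KO and 163, 153 and 142 CPM in AT2 WT. Gnas was at 87.2, 83.8 and 77.3 CPM in AT2 KO and 85.7, 60.2 and 77.0 CPM in AT2 WT.

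Of the 7 members not tested in AT2 cells, H19, Usp29 and Magel2 had 0 counts in all 6 libraries, and Igf2, Ndn, Asb4 and Zim1 had at most 8 in any. The paternal to maternal ratio overlapped at all 6 loci where it could be formed. Nnat to Blcap was 0.645, 0.717 and 0.747 in AT2 KO and 0.746, 0.504 and 0.686 in AT2 WT. Mest to Copg2 was 0.0574, 0.0522 and 0.0668 in AT2 KO and 0.0357, 0.0441 and 0.0593 in AT2 WT. The IGF axis (9 of 19 tested), the imprint maintenance list (18 of 21) and the Dlk1-Dio3 genes (3 of 7) also had 0 calls, with edgeR, DESeq2 or limma-voom, and 0 at an unadjusted p under 0.05.

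**Figure D5:**
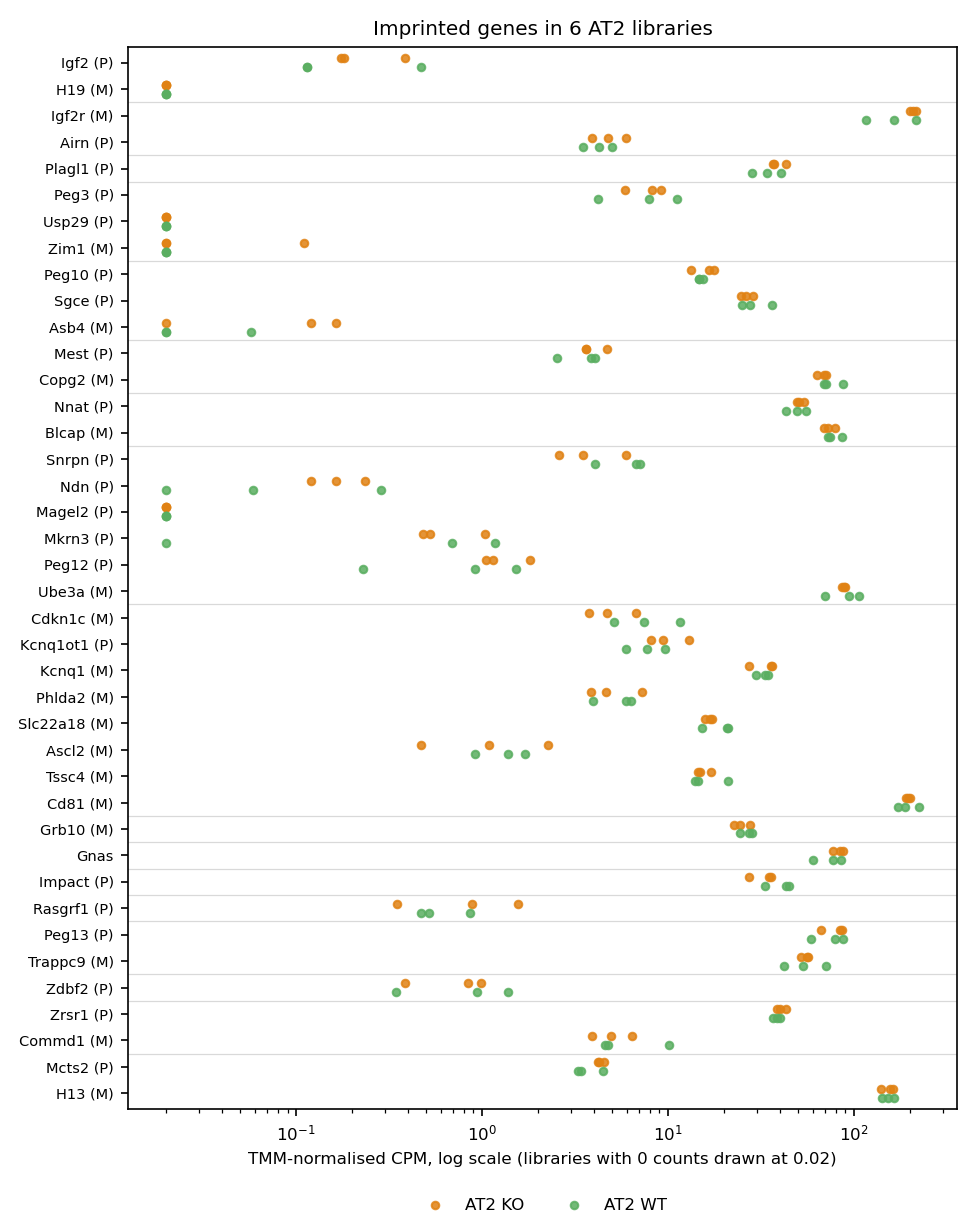
Level of each of the 40 imprinted genes in the 3 AT2 KO and 3 AT2 WT libraries, as TMM-normalised CPM on a log axis, with 0 counts drawn at the left edge. AT2 KO and AT2 WT overlap for every gene, and H19, Usp29 and Magel2 are at 0 in all 6 libraries.

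Set beside the lung libraries, the sorted AT2 cells show where members stood higher or lower in that cell type. The tables were normalised apart, list different identifiers and come from mice of different age, so these levels are a description with no test. For 5 members every AT2 library lay above every lung library: Nnat (43.3 to 55.4 CPM in AT2 cells, 3.98 to 12.0 CPM in lung), Peg10 (13.3 to 17.8 against 1.57 to 7.23), Ube3a (69.8 to 106 against 5.03 to 41.3), Plagl1 (28.3 to 43.1 against 12.4 to 26.2) and Tssc4 (14.0 to 21.1 against 7.83 to 11.0). For 5 every AT2 library lay below: H19 (0 in all 6 AT2 libraries), Asb4 (at most 0.165 against 0.271 to 1.12), Ndn (at most 0.287 against 0.364 to 12.0), Cd81 (174 to 225 against 244 to 425) and Gnas (60.2 to 87.2 against 501 to 1942). The other 30 overlapped. No such share over all genes was computed, so these counts are not set against a background.

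Imprinted genes of the tumours did not all sit at the AT2 level. Nnat in tumours (3.98 to 5.68 CPM) lay below adjacent tissue and far below AT2 cells, while Peg10 in tumours (2.22 to 7.23 CPM) lay below the AT2 range. Mest to Copg2 was 0.0241 to 0.0619 in tumours, overlapping the 0.0357 to 0.0668 of AT2 cells, and Peg13 to Trappc9 was 1.25 to 1.77 in tumours and 1.24 to 1.52 in AT2 cells. At these 2 loci tumour and AT2 ratios overlapped, and both lay under adjacent lung. At Zrsr1 to Commd1 they did not overlap, with 0.523 to 0.770 in tumours and 3.96 to 10.3 in AT2 cells, above most of the 0.944 to 4.45 of adjacent lung. At Nnat to Blcap they did not overlap either, with 0.0499 to 0.0614 in tumours and 0.504 to 0.747 in AT2 cells. Rasgrf1 and Phlda2 reached higher CPM in every tumour than in any AT2 library.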

How the data were processed

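Poly-A RNA of 12 libraries was sequenced. Per the labels' protocols, mRNA was taken with poly-T beads and libraries were made with a NEBNext Ultra kit, so strand was not kept. The submitters' processing notes name HISAT2, Trimmomatic 0.39, FastQC, DESeq2 1.28.1 and StringTie 1.3.3b, with the build GRCm38 (mm10). How reads were counted, with which annotation and strand setting, is not given in the sources used here. The authors deposited whole-number counts per gene, 1 table for lung and 1 for AT2 cells, with 54186 identifiers in both. Names, coordinates and exon lengths came from GENCODE M21. 19 of the 40 members share exon bases with another gene.

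Each table was tested alone in R 4.3.3 with edgeR 4.0.16 (filterByExpr with a minimum count of 10, TMM, quasi-likelihood test, Benjamini-Hochberg over all genes tested, threshold 0.05). CPM are counts scaled to a common total after TMM, fold changes have the tumour or KO on top, and a standard error is the fold change divided by the root of F. Alternatives were other scalings, no filter, DESeq2 1.42.0, limma-voom 3.58.1, leaving out libraries, and the mouse as a block. The numbers pair lung samples because tumour and adjacent tissue came from the same animal, and their deviations from group means went together (r = 0.27 for mouse 102, 0.46 for 217 and 0.37 for 224). The script was tested on simulated data. Counts of any 2 libraries of a group differed beyond sampling noise (chi-square over its degrees of freedom of at least 7.68). This measure was 7.68 to 11.9 in AT2 KO, 52.2 to 108 in AT2 WT, 555 to 943 in adjacent lung and 440 to 1375 in tumours. Unmatched identifiers held at most 0.130% of a library's counts.

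Values are given per library for members that passed in either fit, members of their loci, the 5 of highest CPM per table, and members whose groups did not overlap at a fold of at least 2. The members and lists were chosen with earlier results of these data known.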

Additional observations from a re-analysis of the deposited data

How the results depend on the processing

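In lung 2007 genes passed, and 3729 did with DESeq2, 2980 with the mouse as a block (1719 in both fits), 847 without both libraries of mouse 217, and 598 to 1854 when 1 library was left out. The count of imprinted genes higher in tumour was 1, and 3 with DESeq2 (Phlda2, Blcap and Rasgrf1), 4 with the block, 0 without mouse 217 and 0 to 1 when 1 library was left out. The count lower was 1, and 2 with library totals alone, 3 with DESeq2 (Ndn, Mest and Cdkn1c), 2 with limma-voom, 3 with the block, 0 without mouse 217 and 0 to 2 when 1 library was left out. In AT2 cells 0 genes passed, and 17 did with no filter, 1 with DESeq2 and 0 to 1 when 1 library was left out, with 0 members among them. The causes were not tested. Over 504 pairs of a lung member and a setting 483 stayed on the same side of the threshold, 9 lost the call (2 members), 12 gained it (8 members) and 0 called values reversed. The sign of the fold change was that of the edgeR fit in 481 and the other in 23 (12 members). Over 396 pairs in AT2 cells none passed, with a smallest adjusted p of 0.394, and the sign was the other in 42 (16 members). Low members (H19, Ascl2, Asb4, Peg12, Mkrn3) rest on few counts.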
